A study of Mus musculus with 6 samples.

Results

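The mitochondrial carriers of solute carrier family 25 (SLC25) are described here in the tibialis anterior of mouse, a fast hindlimb muscle. Members were all genes whose Ensembl mouse ID maps to a protein-coding symbol made of Slc25a and a number, which gave 47 of the 41025 genes in each table. Libraries labelled Mettl21e knockout (KO, n = 3) were compared with libraries labelled wild type (WT, n = 3). All 6 libraries came from C57BL/6 mice 8 weeks old, and the labels give no further allele, treatment, promoter or Cre, nor how the deletion was made. Mettl21e encodes a protein methyltransferase enriched in muscle, and the comparison asks which transcripts differ in muscle after its deletion. Levels are FPKM, that is fragments scaled by gene length and by the total of the library. The series describes its replicates as biological without stating that each is a mouse of its own, and the p-values therefore reflect how far these particular libraries scatter.

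SLC25 proteins sit mostly in the inner mitochondrial membrane and share a fold built from 3 similar repeats. Each exchanges or moves a small set of solutes between cytosol and matrix: nucleotides, phosphate, carboxylates, amino acids, acylcarnitines, cofactors or metals. Working muscle depends on them for export of ATP, for uptake of phosphate and fuel, and for the malate-aspartate shuttle, which carries the electrons of cytosolic NADH into mitochondria. Several substrates are served by a pair of carriers that differ in the tissues in which they prevail.

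Library totals, inferred from the deposited values, were 8476591 to 10435095 fragments in the KO group and 8842349 to 10856669 in the WT group. At these totals 1 fragment per kilobase of gene length equalled 0.0921 to 0.118 FPKM. Mettl21e itself was at 1.64, 1.45 and 1.88 FPKM in KO libraries, against 2.46, 0.309 and 1.23 FPKM in WT libraries. On the log2 scale the difference was 0.29 (SE 0.31, limma adjusted p = 0.988; exact two-sided permutation p = 0.7, where 3 against 3 allow none below 0.1). The labels could therefore not be checked by the target's transcript, and each direction given for a carrier compares libraries as labelled. Fast fibre markers were high throughout (summed 89463 to 92019 FPKM in KO libraries and 88879 to 95981 FPKM in WT libraries), as the tissue label says. Of these 10, only Myh1 was higher in KO at an unadjusted p under 0.05 (limma, 1.28% of all tested genes were). Its groups were apart, at 2753, 2255 and 1977 FPKM in KO and 1881, 1841 and 1763 FPKM in WT (3.84% of all tested genes were apart and higher). Of 8 slow fibre markers 7 were lower in KO means, with sums of 257 to 373 FPKM in KO libraries and 287 to 575 FPKM in WT libraries. All 6 tested adipocyte markers were lower in KO means too (sums 87.1 to 102 FPKM in KO, 100.4 to 146 FPKM in WT). So were all 6 fibroblast markers (218 to 302 FPKM in KO, 209 to 440 FPKM in WT). The 5 tested leukocyte markers were all lower as well (28.9 to 50.5 FPKM in KO, 31.0 to 200.4 FPKM in WT). In each of these lists WT replicate 1 had the lowest WT sum, within or below the KO range. In WT replicate 3, S100a8 and S100a9 gave 70.8 and 67.1 FPKM of the leukocyte sum. Over all tested genes 56.7% were lower in KO. All 5 endothelial and 4 of 5 tested erythroid markers were lower, against 2 of 4 Schwann and 0 of 2 tested cardiac markers. The sums for these lists overlapped between the groups, but that of the slow fibre list is mostly Myl3 (192 to 295 FPKM in KO, 204 to 383 FPKM in WT). Among single slow fibre markers 4 of 8 were lower at an unadjusted p under 0.05 (3.31% of all tested genes were) and 3 had groups apart (5.64% of all tested genes were apart and lower), with a median log2 difference of -1.11. Myl2, a myosin light chain of slow fibres, was at 20.2, 42.4 and 33.1 FPKM in KO libraries, against 104, 77.5 and 54.8 FPKM in WT libraries. Not all slow fibre markers were that clear. Tnnc1 was at 3.93, 6.44 and 5.04 FPKM in KO libraries, against 23.4, 28.7 and 3.28 FPKM in WT libraries. For Tnnc1, WT replicate 3 thus lay below every KO library. In Tnni1, Tnnt1 and Myl3 WT replicate 3 lay within the KO range, and Myh7b was higher in KO means. Of the adipocyte markers 3 of 6 were lower at that p and 2 had groups apart, and of the leukocyte markers 1 of 5 was lower at that p; none of these markers passed the test over all genes. No listed marker was at 0 in all 6 libraries, and the part of these cell types in the carrier values was not tested. In whole muscle, fewer cells of a type and less RNA per cell cannot be told apart.

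Transcripts of a few carriers made up nearly the whole family in this muscle. Of the 47 members, 40 were above 0 in all 6 libraries, 5 in 1 to 5 libraries, and 2, Slc25a31 and Slc25a54, were listed at 0 in each. Slc25a4, Slc25a3, Slc25a11 and Slc25a12 had means of at least 100 FPKM and together held 89.1% of the summed carrier level as deposited, Slc25a4 alone 63.4%. A further 15 carriers lay between 10 and 100 FPKM, 18 between 1 and 10 FPKM and 10 below 1 FPKM. The summed level of the family was 5162, 4806 and 4780 FPKM in KO libraries, against 4918, 4496 and 4679 FPKM in WT libraries. The sums overlap, with means of 4916 ± 213 FPKM in KO and 4698 ± 212 FPKM in WT (SD, n = 3 each).

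**Figure D1:**
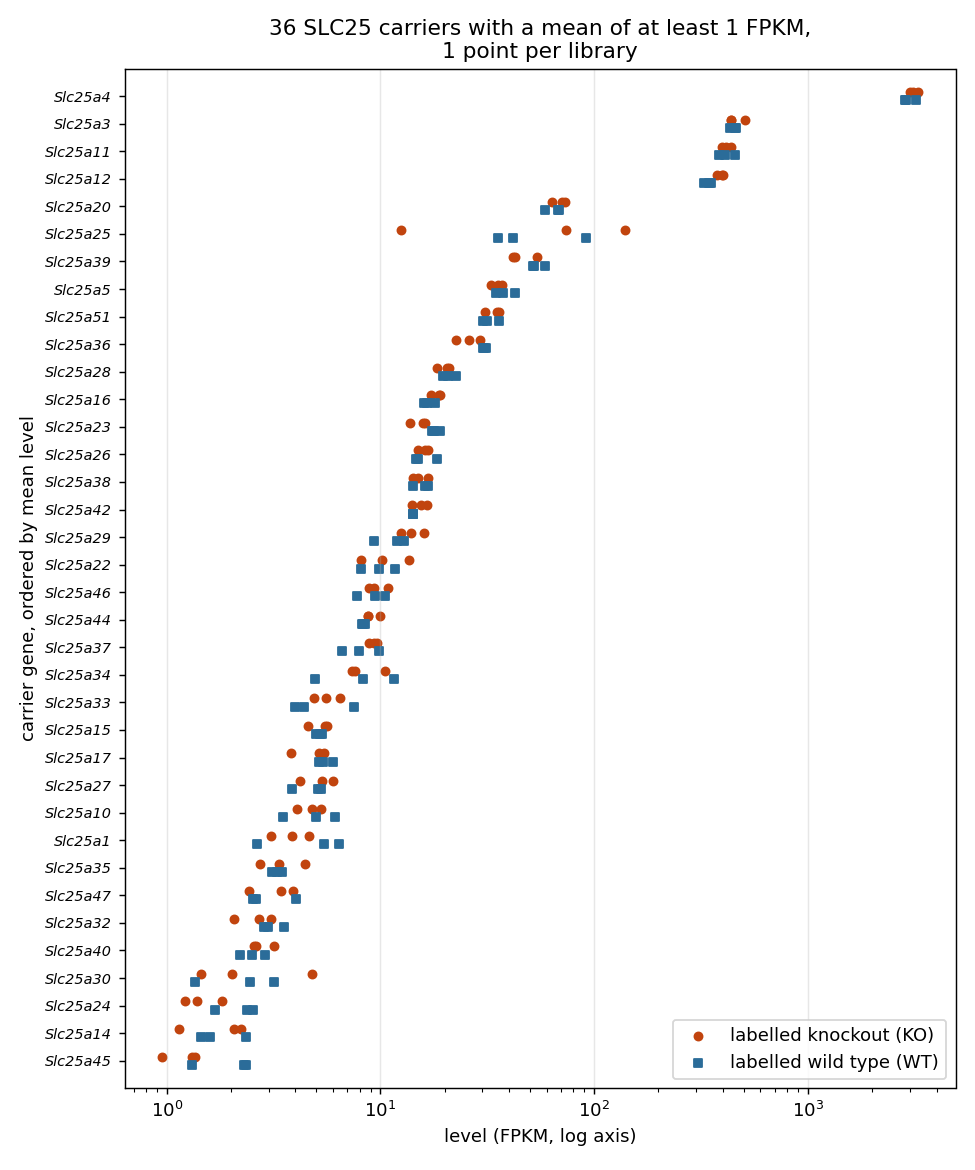
FPKM (log axis) of 36 of the 37 carriers whose mean reached 1 FPKM, 1 point per library, circles for labelled knockout and squares for labelled wild type, ordered by mean level. Slc25a4 stands alone near the right edge, Slc25a3, Slc25a11 and Slc25a12 form the next tier, and the points of Slc25a25 run from 12.5 to 139 FPKM.

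The order of levels has few clear steps. Among the 37 carriers whose mean reached 1 FPKM there are 36 pairs of neighbours in the order, and in 2 of them the lowest library of the higher gene lay above the highest library of the lower one. These were the step from Slc25a4 down to Slc25a3 and the step from Slc25a12 down to Slc25a20. All other neighbours overlap between libraries, among them Slc25a3, Slc25a11 and Slc25a12 in the places behind Slc25a4. FPKM between genes also depends on the length used. The gene lengths behind the deposited values, recovered from their whole-fragment steps, came within 1 base of the mean length of the gene's annotated transcripts in 66.3% of 11347 genes, so that short transcript fragments in the annotation raise a gene's FPKM. Recomputed per kilobase of the longest annotated transcript, an alternative added after the data were seen, Slc25a4 stayed in place 1 (2531 FPKM against 3046 as deposited). Slc25a11 moved to place 2 (204 FPKM) and Slc25a3 to place 3 (168 FPKM), and Slc25a12 kept place 4 at 96.4 FPKM, 3.80-fold below its deposited mean of 366 FPKM. Shares of the summed level moved as well: Slc25a4 held 76.7%, against 63.4% as deposited, and Slc25a12 2.92%, against 7.62%. Slc25a22, a glutamate carrier gene with 25 annotated transcripts, showed a change of 4.44-fold and moved to place 29 from place 19. The length of a gene is the same in all libraries, but it sets its place against the limit of 1 FPKM and the weight of the pseudocount. Slc25a45, tested at 1.60 FPKM as deposited, would fall to 0.914 FPKM.

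**Figure D2:**
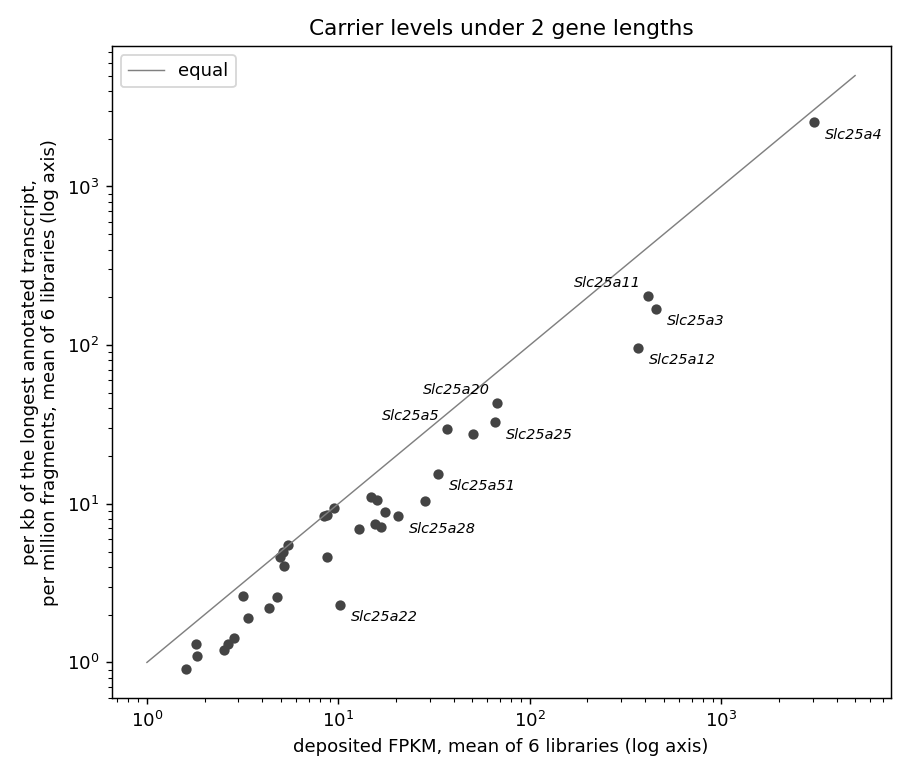
Mean level over 6 libraries of 36 of the 37 carriers, as deposited (x) and per kilobase of the longest annotated transcript (y), both on log axes, 1 point per gene, with the line of equal values. Slc25a4 lies close to the line, Slc25a12 falls 3.80-fold and Slc25a22 4.44-fold below it.

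No carrier passed the test between the labels. With limma on log2(FPKM + 1) over the 11383 genes whose mean reached 1 FPKM, 0 of the 37 tested carriers had a Benjamini-Hochberg adjusted p under 0.05, against 0.0% of all tested genes, and the smallest adjusted p of a carrier was 0.988 (0.290 over all genes). At an unadjusted p under 0.05 stood 3 carriers (8.11%), against 4.59% of all tested genes. Of these, 1 was higher in KO (Slc25a12; 1.28% of all genes were higher at that p) and 2 were lower (Slc25a23 and Slc25a36; 3.31% of all genes were lower). The 3 KO libraries did not overlap the 3 WT libraries in 4 carriers (10.8%), against 9.48% of all tested genes. KO was higher in 2 of these (5.41%, against 3.84% of all tested genes) and lower in 2 (5.41%, against 5.64%). In sign, 22 carriers were higher in KO and 15 lower, a share of 59.5% higher against 43.3% over all genes and of 40.5% lower against 56.7%. The median log2 difference was 0.04 against -0.02. Without KO replicate 1 the median was -0.04 and 15 of the 37 carriers were higher. The 10 carriers below the mean of 1 FPKM were not tested. At that limit Slc25a45 (1.60 FPKM) was the lowest tested and Slc25a53 (0.942 FPKM) the highest left out.

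**Figure D3:**
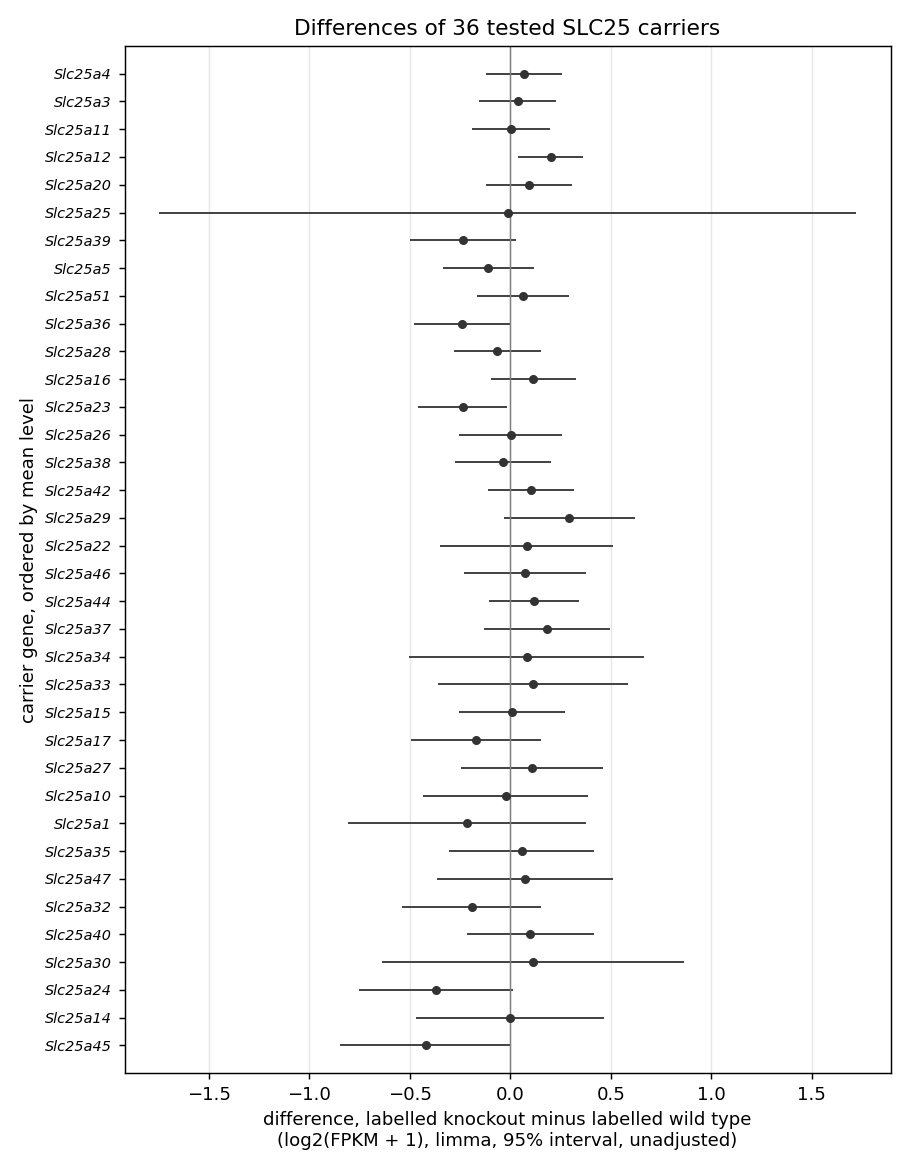
Log2 difference of 36 of the 37 tested carriers, KO minus WT on the log2(FPKM + 1) scale, points for the limma estimate and bars for its unadjusted 95% interval, ordered by mean level from the top. Most intervals cross 0, that of Slc25a12 runs from 0.04 to 0.36, and that of Slc25a25 is the widest, from -1.75 to 1.72.

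The ADP/ATP and phosphate carriers, which supply the matrix with the substrates of ATP synthase and export the ATP made, held 73.6% of the summed carrier level as deposited. Slc25a4 (ENSMUSG00000031633, chromosome 8 from 46206797 to 46211284, minus strand, GRCm38) encodes the adenine nucleotide translocase of heart and muscle, which swaps matrix ATP for cytosolic ADP. It was at 3266, 2995 and 3095 FPKM in KO libraries, against 3204, 2833 and 2882 FPKM in WT libraries, from 40767 to 55122 fragments a library. The groups overlap, since WT replicate 1 lay above KO replicates 2 and 3. Its mean was 3118 ± 137 FPKM in KO and 2973 ± 202 FPKM in WT (SD, n = 3 each), a log2 difference of 0.07 (SE 0.08, limma adjusted p = 0.988, 95% interval -0.12 to 0.26). Slc25a4 ranked 29 by mean among all tested genes.

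Slc25a5 (ENSMUSG00000016319, chromosome X from 36795651 to 36798807, plus strand) encodes the translocase found in most tissues, and was at 35.6, 37.2 and 33.0 FPKM in KO libraries, against 37.5, 34.7 and 42.5 FPKM in WT libraries. These values overlap (log2 difference -0.11, SE 0.10, limma adjusted p = 0.988). Slc25a31, the translocase of the male germ line, was listed at 0 in all 6 libraries. Slc25a4 held 98.9% ± 0.093 of the summed ADP/ATP carrier level in KO libraries and 98.7% ± 0.158 in WT libraries (SD, n = 3 each). The level of Slc25a4 over that of Slc25a5 was 91.7, 80.6 and 93.9 in KO libraries, against 85.5, 81.6 and 67.8 in WT libraries, and the ratios overlap.

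Because the proteins of this pair are close relatives, a stretch of their coding sequences is shown, since reads are told apart by the bases that differ. Both have 894 coding bases, of which 202 differ (77.4% identical); the longest identical run is 20 bases, and 0 windows of 50 bases are identical at the same position. The next 2 lines give coding bases 287 to 376 of each, read within 1 exon from the GRCm38 annotation, 5′ to 3′ on the gene's strand; capitals mark the 19 bases that differ between the genes. Slc25a4 is read from chr8:46209244-46209333 (minus strand) and Slc25a5 from chrX:36797018-36797107 (plus strand).
Slc25a4: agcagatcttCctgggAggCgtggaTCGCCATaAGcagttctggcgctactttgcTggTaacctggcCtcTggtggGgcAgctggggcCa
Slc25a5: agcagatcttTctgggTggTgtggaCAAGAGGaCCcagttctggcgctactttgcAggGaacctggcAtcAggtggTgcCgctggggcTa
Of the 50-base words in its transcripts, Slc25a4 shares 0% with any other annotated gene. Slc25a5 shares 33.8%, of which Gm5560 alone accounts for 21.1%, so the value of Slc25a5 is uncertain: reads could be split with such copies.

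Slc25a3 (chromosome 10 from 91116574 to 91124059, minus strand) encodes the phosphate carrier. It was at 508, 438 and 439 FPKM in KO libraries, against 460, 456 and 432 FPKM in WT libraries. KO replicate 1 was the highest and WT replicate 3 the lowest, and the groups overlap (means 462 ± 39.9 FPKM in KO and 449 ± 15.2 FPKM in WT, SD, n = 3 each). Its log2 difference of 0.04 (SE 0.08, limma adjusted p = 0.988) turned to -0.03 without KO replicate 1. The level of Slc25a4 was 6.77 ± 0.313 times that of Slc25a3 in KO libraries and 6.62 ± 0.379 times in WT libraries (SD, n = 3 each) on the deposited scale.

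The aspartate/glutamate and oxoglutarate/malate carriers form the membrane part of the malate-aspartate shuttle, and both main genes were among the 4 highest. Slc25a12 (ENSMUSG00000027010, chromosome 2 from 71271063 to 71367749, minus strand) encodes the calcium-responsive aspartate/glutamate carrier of excitable tissues, also called aralar. It was at 402, 377 and 397 FPKM in KO libraries, against 344, 327 and 352 FPKM in WT libraries. All 3 KO libraries lay above all 3 WT libraries, with means of 392 ± 13.7 FPKM in KO and 341 ± 12.8 FPKM in WT (SD, n = 3 each). KO minus WT came to 0.20 on the log2 scale (SE 0.07, limma unadjusted p = 0.0205, adjusted p = 0.988), which does not pass the test over all genes, and 81.5% of tested genes had a smaller difference in size. It kept its sign under every alternative setting tried and was called under none.

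Slc25a13 encodes citrin, the aspartate/glutamate carrier that prevails in liver. It was at 0.847, 0.728 and 0.747 FPKM in KO libraries, against 0.589, 0.525 and 1.15 FPKM in WT libraries, from 9 to 16 fragments a library, and was below the limit for testing. WT replicate 3 was the highest and the groups overlap. Slc25a12 made up 99.8% ± 0.012 of the summed level of the pair in KO libraries and 99.8% ± 0.092 in WT libraries (SD, n = 3 each). The ratio of Slc25a12 to Slc25a13 was 475, 517 and 532 in KO libraries, against 584, 623 and 307 in WT libraries. These ratios hold on the deposited scale. Per kilobase of the longest annotated transcript, the mean of Slc25a12 fell 3.80-fold to 96.4 FPKM and that of Slc25a13 1.98-fold to 0.386 FPKM, which makes the ratio smaller.

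The stretches upstream of the RefSeq starts of this pair are shown because their products move the same solutes while their levels in this muscle lie far apart. Each is 250 bases from the RefSeq promoter table (GRCm38.p6), 5′ to 3′ on the gene's strand. Capitals mark matches on either strand to 8 searched motifs. These were the TATA box (TATAAA), the CCAAT box (CCAAT), the GC box (GGGCGG) and the E-box of the MyoD type (CAGCTG). A loose MEF2-like pattern (CTA and TAG with any 4 bases between) was searched too, which is wider than the site bound by MEF2. The others were the NRF1 site (GCGCA and GCGC with any base between), the ERR half-site (AAGGTCA) and the cAMP response element (TGACGTCA). Slc25a12 is read from chr2:71367756-71368005 and Slc25a13 from chr6:6217174-6217423, both minus strand.
Slc25a12: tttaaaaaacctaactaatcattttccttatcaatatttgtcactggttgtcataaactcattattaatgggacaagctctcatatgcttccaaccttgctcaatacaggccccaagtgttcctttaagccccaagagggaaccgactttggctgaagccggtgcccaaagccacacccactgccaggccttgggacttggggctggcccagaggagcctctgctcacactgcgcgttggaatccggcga
Slc25a13: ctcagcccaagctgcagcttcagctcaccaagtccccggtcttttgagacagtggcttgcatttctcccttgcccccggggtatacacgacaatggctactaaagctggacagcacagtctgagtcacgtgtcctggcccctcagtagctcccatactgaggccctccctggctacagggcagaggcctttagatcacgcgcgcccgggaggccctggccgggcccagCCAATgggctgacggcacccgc
The Slc25a12 stretch held 0 matches and the Slc25a13 stretch 1, a CCAAT box at base 229. The 250 bases before each start were searched for the 36 carriers in the table (11 were not matched). A CCAAT box was found in 18 of the 36 carriers (50%), against 37.5% of 27025 genes, and a GC box in 25 (69.4%), against 35.4% of genes. The 27025 are all genes of that table, with no filter by gene type or level, while the carriers are all protein-coding. The shares therefore do not compare like genes. The E-box was found in 3 carriers (14.7% of genes), the loose MEF2-like pattern in 2 (3.70%) and the NRF1 site in 2 (4.23%). The TATA box was found in 2 (14.3%), the cAMP response element in 2 (1.77%) and the ERR half-site in 1 (4.70%). A match is only a match of letters.

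Slc25a11 (chromosome 11 from 70644196 to 70647479, minus strand) encodes the oxoglutarate/malate carrier. It was at 439, 415 and 396 FPKM in KO libraries, against 410, 384 and 454 FPKM in WT libraries. The groups overlap fully, and the means were 416 ± 21.7 FPKM in KO and 416 ± 35.1 FPKM in WT (SD, n = 3 each; 95% interval of the log2 difference -0.19 to 0.20). Of its 50-base words, 6.38% lie in an overlap with Rnf167 on the other strand, and without known strand assignment reads there cannot be told apart. The other carboxylate carriers were low: Slc25a10, for dicarboxylates, averaged 4.71 ± 0.609 FPKM in KO and 4.88 ± 1.32 FPKM in WT (SD, n = 3 each). Slc25a1, the citrate carrier that feeds lipid synthesis, averaged 3.84 ± 0.778 FPKM in KO and 4.83 ± 1.96 FPKM in WT (SD, n = 3 each). Slc25a21, for oxodicarboxylates, was above 0 in 3 libraries and at most 0.292 FPKM.

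Slc25a20 (chromosome 9 from 108662088 to 108684641, plus strand) encodes the carnitine/acylcarnitine carrier, which brings long-chain fatty acids in for oxidation. It was at 70.9, 63.6 and 73.4 FPKM in KO libraries, against 67.5, 68.3 and 59.0 FPKM in WT libraries. The highest library was KO replicate 3 and the lowest WT replicate 3, and the groups overlap (log2 difference 0.09, SE 0.09, limma adjusted p = 0.988).

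The ATP-Mg/phosphate carriers adjust the adenine nucleotide content of the matrix, and 3 of the 4 respond to calcium. Slc25a25 (ENSMUSG00000026819, chromosome 2 from 32414487 to 32451445, minus strand) was the least steady carrier of the family. It was at 73.6, 139 and 12.5 FPKM in KO libraries, against 35.7, 41.7 and 91.9 FPKM in WT libraries, from 201 to 2748 fragments. Its highest and its lowest library both carried the KO label, 11.1-fold apart, and the WT values lay between them. The standard deviation of its log2 level over the 6 libraries was above that of 99.8% of tested genes. KO minus WT came to -0.01 on the log2 scale (SE 0.76, limma adjusted p = 0.9998, 95% interval -1.75 to 1.72), so a difference of over 2-fold either way is within the interval. It was 0.96 without KO replicate 3 and 0.40 without WT replicate 3. KO replicate 3 was also the library lowest in Myh2, the myosin of type IIa fibres, at 297 FPKM, where the other KO libraries had 987 and 973 FPKM and WT libraries 926, 1638 and 1290 FPKM; its part in the Slc25a25 value was not tested.

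**Figure D4:**
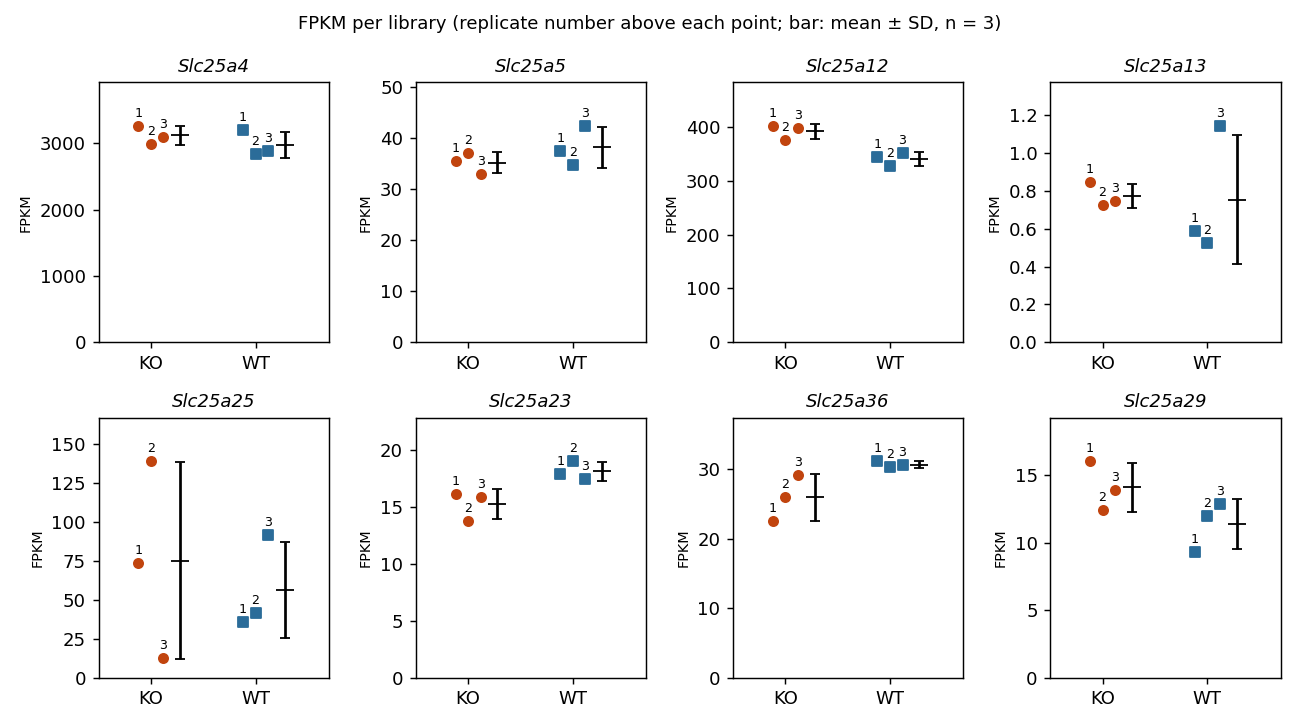
FPKM per library of 8 carriers, circles for KO (left) and squares for WT (right), each numbered by replicate, with the mean and SD (n = 3) beside them and axes that start at 0. The Slc25a12 groups are apart with KO higher, those of Slc25a23 and Slc25a36 are apart with KO lower, and KO libraries of Slc25a25 span 12.5 to 139 FPKM.

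One upstream stretch of Slc25a25 is shown because this gene varied most. Of its 3 windows in the RefSeq table, this one, at a start inside the gene, was picked because it holds a cAMP response element, at base 101. The stretch also holds a CCAAT box at base 173 and a GC box at base 198 (capitals), and it is read from chr2:32424067-32424316, minus strand, GRCm38.p6. The deposited values are 1 per gene, so which start was used was not analysed here. The only other carrier with that element in its window was Slc25a36.
Slc25a25: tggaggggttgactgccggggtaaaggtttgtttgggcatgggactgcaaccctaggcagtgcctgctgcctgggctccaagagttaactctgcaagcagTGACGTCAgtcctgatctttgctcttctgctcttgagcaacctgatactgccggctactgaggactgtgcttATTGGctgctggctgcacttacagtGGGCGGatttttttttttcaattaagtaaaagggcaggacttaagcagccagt

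Slc25a23 (chromosome 17 from 57043711 to 57059863, minus strand), another calcium-responsive form, was at 16.1, 13.8 and 15.9 FPKM in KO libraries, against 17.9, 19.0 and 17.4 FPKM in WT libraries. All KO values lay below all WT values, with means of 15.2 ± 1.28 FPKM in KO and 18.1 ± 0.813 FPKM in WT (SD, n = 3 each). The log2 difference of -0.24 (SE 0.10, limma unadjusted p = 0.0386, adjusted p = 0.988) does not pass the test. It overlaps Gm17168 on the other strand. Slc25a24 was at 1.81, 1.22 and 1.38 FPKM in KO libraries, against 1.68, 2.38 and 2.54 FPKM in WT libraries, which overlap through KO replicate 1 and WT replicate 1 (log2 difference -0.37, SE 0.17, limma adjusted p = 0.988). Slc25a41, the form without a calcium-binding part, was listed at 0 in 5 libraries and at 0.098 FPKM in KO replicate 3. The order within the class was not the same in all libraries: Slc25a25 was 4.58, 10.1 and 0.789 times Slc25a23 in KO libraries, and 1.99, 2.197 and 5.28 times in WT libraries.

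Among carriers of nucleotides and cofactors, all 9 members passed the limit for testing, 5 higher and 4 lower in KO. Their summed level was 148, 157 and 150 FPKM in KO libraries, against 159, 149 and 159 FPKM in WT libraries, and the sums overlap. Slc25a51, the carrier that brings NAD into mitochondria, was at 35.8, 35.1 and 30.8 FPKM in KO libraries, against 31.5, 30.0 and 35.8 FPKM in WT libraries. Its highest libraries came from both groups, which overlap.

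Slc25a36 and Slc25a33 carry pyrimidine nucleotides. Slc25a36 (chromosome 9 from 97074961 to 97111157, minus strand) was at 22.5, 26.04 and 29.2 FPKM in KO libraries, against 31.1, 30.2 and 30.6 FPKM in WT libraries. All KO values were lower than all WT values, but KO replicate 3 came within about 1 FPKM of them, and the KO spread was the wider (25.9 ± 3.35 FPKM in KO and 30.6 ± 0.466 FPKM in WT, SD, n = 3 each). Its log2 difference was -0.24 (SE 0.10, limma unadjusted p = 0.0489, adjusted p = 0.988), and 6.70% of its 50-base words are shared with Gm13217. Slc25a33 was at 5.57, 6.50 and 4.88 FPKM in KO libraries, against 7.54, 4.003 and 4.38 FPKM in WT libraries, with both extremes among WT libraries; 12.6% of its words lie in an overlap with Gm13068.

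Slc25a16, linked to coenzyme A supply, was at 18.8, 19.0 and 17.2 FPKM in KO libraries, against 18.0, 16.0 and 16.5 FPKM in WT libraries. Slc25a32, which carries folate or flavin into mitochondria, was at 2.06, 2.70 and 3.08 FPKM in KO libraries, against 2.97, 2.85 and 3.53 FPKM in WT libraries. Neither pair of groups is apart (log2 differences 0.11 and -0.19, limma adjusted p = 0.988 for each). Further members were Slc25a26, which imports S-adenosylmethionine, the methyl donor of methyltransferases (16.0 ± 0.931 FPKM in KO and 16.0 ± 2.12 FPKM in WT), the coenzyme A carrier Slc25a42 (15.4 ± 1.23 FPKM in KO and 14.2 ± 0.019 FPKM in WT) and the peroxisomal Slc25a17 (4.82 ± 0.866 FPKM in KO and 5.51 ± 0.462 FPKM in WT; SD, n = 3 for each value).

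Of the 9 amino acid carriers 6 were tested, and 5 of these were higher in KO. Beside Slc25a12, the only carrier of this class with groups apart was Slc25a44, which carries branched-chain amino acids and is named here after its values were seen: 8.73, 9.91 and 8.78 FPKM in KO libraries, against 8.47, 8.28 and 8.22 FPKM in WT libraries. The gap between its lowest KO and highest WT library is small beside the KO spread, and its log2 difference was 0.12 (SE 0.10, limma unadjusted p = 0.258). Slc25a29, for basic amino acids, was at 16.1, 12.4 and 13.9 FPKM in KO libraries, against 9.29, 11.95 and 12.9 FPKM in WT libraries. Only KO replicate 2 falls below the highest WT library (log2 difference 0.29, SE 0.14, limma adjusted p = 0.988). Slc25a38, which supplies glycine for haem synthesis, averaged 15.3 ± 1.28 FPKM in KO and 15.7 ± 1.30 FPKM in WT (SD, n = 3 each). The glutamate carrier Slc25a22 averaged 10.6 ± 2.75 FPKM in KO and 9.87 ± 1.83 FPKM in WT, and the ornithine carrier Slc25a15 averaged 5.23 ± 0.566 FPKM in KO and 5.18 ± 0.165 FPKM in WT (SD, n = 3 each). Their relatives Slc25a18 and Slc25a2 had 0 to 7 fragments a library, where 3 fragments per kilobase of gene length equal 0.276 to 0.354 FPKM.

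Iron and glutathione are each served by a pair. Slc25a39, a carrier of glutathione, was at 54.3, 41.9 and 42.8 FPKM in KO libraries, against 52.3, 51.8 and 59.1 FPKM in WT libraries. KO replicate 1 lay among the WT values and the other KO libraries below them (log2 difference -0.23, SE 0.12, limma adjusted p = 0.988). Its relative Slc25a40 was at 2.62, 2.57 and 3.16 FPKM in KO libraries, against 2.198, 2.89 and 2.52 FPKM in WT libraries. Slc25a39 was 16.8 ± 3.63 times Slc25a40 in KO and 21.7 ± 3.30 times in WT (SD, n = 3 each).

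Slc25a28, mitoferrin of most tissues, was at 21.0, 20.5 and 18.5 FPKM in KO libraries, against 20.6, 22.5 and 19.6 FPKM in WT libraries. Slc25a37, the mitoferrin that prevails in erythroid cells, was at 9.31, 9.60 and 8.80 FPKM in KO libraries, against 7.94, 6.61 and 9.79 FPKM in WT libraries. Both overlap, and the ratio of Slc25a28 to Slc25a37 stayed between 2.01 and 3.41 in all 6 libraries. Erythroid markers summed to 473 to 783 FPKM in KO libraries and 458 to 851 FPKM in WT libraries; their part in the Slc25a37 value was not tested.

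The relatives of uncoupling proteins were low. Slc25a27 averaged 5.18 ± 0.894 FPKM in KO and 4.73 ± 0.751 FPKM in WT, and Slc25a14 averaged 1.81 ± 0.586 FPKM in KO and 1.80 ± 0.492 FPKM in WT (SD, n = 3 each). Slc25a30 varied 3.53-fold over the 6 libraries, the widest span behind Slc25a25, with 21 to 79 fragments a library. Among carriers with other or unsettled roles, Slc25a46, an outer membrane protein that acts on mitochondrial shape, averaged 9.69 ± 1.08 FPKM in KO and 9.19 ± 1.37 FPKM in WT, and Slc25a34 averaged 8.47 ± 1.73 FPKM in KO and 8.27 ± 3.30 FPKM in WT (SD, n = 3 each). Slc25a45 was at 1.32, 1.36 and 0.953 FPKM in KO libraries, against 1.32, 2.29 and 2.36 FPKM in WT libraries. Its groups overlap through WT replicate 1 (log2 difference -0.42, SE 0.19, limma adjusted p = 0.988), and 12 to 37 fragments stood behind each value. Slc25a47 averaged 3.26 ± 0.759 FPKM in KO and 3.06 ± 0.828 FPKM in WT, and Slc25a35 averaged 3.50 ± 0.868 FPKM in KO and 3.28 ± 0.188 FPKM in WT (SD, n = 3 each); 25.05% of the words of Slc25a35 lie in an overlap with Rangrf. Slc25a53, Slc25a43 and Slc25a48 were below 1 FPKM on average.

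Spread between libraries set how firmly each carrier is known. Of the 37 tested carriers, 21 stayed within 1.5-fold from the lowest to the highest library and 7 varied over 2-fold (15.0% of all tested genes did). The count within 1.5-fold was not made over all genes. As a set the carriers were not steadier than other genes. Their median standard deviation of log2 level over the 6 libraries was 0.175, against 0.155 over all tested genes. The 4 highest carriers spanned 1.15-fold (Slc25a4), 1.18-fold (Slc25a3), 1.18-fold (Slc25a11) and 1.23-fold (Slc25a12). Besides Slc25a25 and Slc25a30, the carriers over 2-fold were Slc25a45, Slc25a1, Slc25a34, Slc25a24 and Slc25a14, all with means below 10 FPKM.

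Genes that work with the carriers were read from the same fit. Of 4 tested proteins of the same fold with other symbols, 2 were higher and 2 lower in KO, with 0 called. Mtch1 averaged 84.6 ± 9.76 FPKM in KO and 91.6 ± 3.67 FPKM in WT, and Mtch2, an outer membrane insertase, 82.3 ± 2.64 FPKM in KO and 79.6 ± 5.12 FPKM in WT (SD, n = 3 each). The muscle uncoupling protein Ucp3, chosen once its values were known, was at 75.1, 65.5 and 34.3 FPKM in KO libraries, against 104, 38.4 and 23.5 FPKM in WT libraries, and the groups overlap.

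Of the 13 genes of the import route and outer membrane pores through which carriers and their solutes pass, 8 were higher and 5 lower in KO, with a median log2 difference of 0.09 and 0 called. Vdac1, the main pore of the outer membrane, was at 1419, 1575 and 1551 FPKM in KO libraries, against 1546, 1300 and 1267 FPKM in WT libraries, and overlaps. Vdac3 averaged 313 ± 12.3 FPKM in KO and 294 ± 25.9 FPKM in WT (SD, n = 3 each). Groups were apart in 2, both higher in KO (against 9.48% of all tested genes apart and 3.84% apart and higher), Vdac2 (291 ± 5.68 FPKM in KO and 263 ± 15.6 FPKM in WT) and the receptor Tomm70a (17.2 ± 0.615 FPKM in KO and 15.7 ± 0.640 FPKM in WT; SD, n = 3 each), both named after their values were seen. Of 17 other inner membrane transporters 8 were higher and 9 lower with 0 called, the highest being Smdt1, a part of the calcium uniporter (168 ± 13.2 FPKM in KO and 178 ± 3.57 FPKM in WT), and the pyruvate carrier subunit Mpc2 (143 ± 7.17 FPKM in KO and 145 ± 16.6 FPKM in WT; SD, n = 3 each).

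Enzymes that use what the carriers move were split evenly, 10 higher and 10 lower of 20 tested, with 0 called. At an unadjusted p under 0.05 stood 4 of them, 1 higher and 3 lower in KO, against 4.59% of all tested genes (1.28% higher and 3.31% lower). Groups were apart in 5, 1 higher and 4 lower, against 9.48% of all tested genes (3.84% higher and 5.64% lower). Gpx1, a glutathione peroxidase, was at 36.0, 32.7 and 32.2 FPKM in KO libraries, against 50.4, 45.8 and 49.1 FPKM in WT libraries. All KO values were lower (log2 difference -0.51, SE 0.08, limma adjusted p = 0.659). Ckmt2, the mitochondrial creatine kinase that takes up ATP exported by Slc25a4, was at 891, 921 and 826 FPKM in KO libraries, against 1040, 999.5 and 1062 FPKM in WT libraries. Its groups are apart with KO lower (log2 difference -0.23, SE 0.07, limma adjusted p = 0.988). Idh2 averaged 204 ± 35.3 FPKM in KO and 251 ± 3.17 FPKM in WT, and Gpd2, which passes cytosolic electrons to the respiratory chain by the glycerol phosphate shuttle, averaged 68.2 ± 4.93 FPKM in KO and 57.2 ± 6.23 FPKM in WT (SD, n = 3 each). The groups of Idh2 and Gpd2 are also apart, and so are those of Mdh1, the cytosolic malate dehydrogenase of the malate-aspartate shuttle, which is named after its values were seen (1012 ± 18.6 FPKM in KO and 1102 ± 56.9 FPKM in WT, SD, n = 3 each). None of these passes the test over all genes.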

How the data were processed

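RNA of 3 libraries labelled knockout and 3 labelled wild type was measured by RNA-seq. The authors deposited FPKM per gene, 1 table per library. TopHat2 2.1.1, Cufflinks 2.2.1 and build mm10 come from the submitters' processing notes; the sources used here give neither their roles nor the annotation release or strand setting. Titles of the samples gave group and replicate number. Members and lists were chosen with earlier results of these data known. Values in every library are given for the 12 highest carriers, the 10 tested carriers with the smallest unadjusted p and their partners for the same substrate. From the lists of genes that work with the carriers, those with an unadjusted p under 0.05 or otherwise the 2 highest are named. Cell type markers are given by counts, sums and a few examples, and not every marker at that p is named. The values of 1 carrier are not reported here.

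The test was limma 3.58.1 (R 4.3.3) on values as log2(FPKM + 1), unscaled, with eBayes following the mean-variance trend, over the 11383 genes whose mean reached 1 FPKM, with Benjamini-Hochberg adjustment and a threshold of 0.05; differences of low genes are understated on that scale. Each library total was inferred as the whole number reached by most genes, taking all annotated exon bases as gene length. It was reached by 2860 to 3470 genes a library, and the next number by 2688 to 3245. Whole fragments were then recovered from the steps of the values (tolerance 0.002, lengths 20 to 110000 bases) for 99.9% of the tested genes. A chi-square test of them found every pair of libraries different beyond sampling noise. Positions, transcripts and coding sequence came from GENCODE (GRCm38), upstream stretches from RefSeq. The alternatives were median centring, quantile normalization, pseudocounts of 0.1 and 0.01, the replicate number as a term, no filter, a filter at a mean of 5 FPKM, no trend, library weights, voom on recovered fragments, and leaving out each library. Other software was pandas 2.3.3, numpy 2.4.6 and matplotlib 3.10.9 in Python 3.11.15.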

Additional observations from a re-analysis of the deposited data

How the results depend on the processing

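No carrier was called under any of the 16 alternatives, and the smallest adjusted p of a named carrier was 0.223. Of 332 alternative log2 differences of 21 named carriers, 320 kept the sign. The other 12 belong to 4 carriers: Slc25a25 (0.033 with median centring, 0.0031 with quantile normalization, 0.011 with library weights, 0.0043 with voom, 0.96 without KO replicate 3, 0.40 without WT replicate 3, range with 1 library left out -0.73 to 0.96), Slc25a11 (-0.034 with library weights, -0.035 without KO replicate 1, -0.0046 without WT replicate 1, -0.052 without WT replicate 2, range with 1 library left out -0.052 to 0.068), Slc25a3 (-0.034 without KO replicate 1, range to 0.072) and Slc25a33 (-0.035 without WT replicate 2, range to 0.35). Over all tested genes, leaving out 1 library gave 0 to 3 calls (3 without WT replicate 3, 1 without KO replicate 3 and 1 without WT replicate 1). Carriers at an unadjusted p under 0.05 numbered 3, against 6 with library weights and 0 to 5 with 1 library left out (0 without WT replicate 2, 1 without KO replicate 3, 5 without WT replicate 1). Over all 11383 tested genes the same count was 523, against 1413 with library weights, 356 without WT replicate 2, 406 without KO replicate 3 and 1356 without WT replicate 1. With the replicate number as a block (replicate block) 1 of the 37 carriers stood there, against 472 of the 11383 tested genes. Same-numbered libraries did not deviate together (correlations of deviations 0.02, -0.04 and 0.02), so the numbers were not taken to pair them. The median log2 difference of the carriers ran from -0.038 (without KO replicate 1) to 0.040 with 1 library left out, and was 0.083 with median centring, 0.067 with quantile normalization, 0.0093 without a filter and 0.011 with library weights. The log2 ratio of summed levels (0.065) ran from 0.029 to 0.0998 with 1 library left out, and was 0.115 when divided by the library median and 0.097 without mitochondrially encoded genes. Among the 12 highest carriers, the rank per kilobase of the longest transcript changed for Slc25a3 (3), Slc25a11 (2), Slc25a39 (8), Slc25a5 (7), Slc25a36 (13) and Slc25a28 (18). These ranks use the same fragments over another length. What moved the other values between the alternatives was not tested. Carriers with few fragments, such as Slc25a13 with 9 to 16 a library, are limited by depth.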
